A study of Mus musculus with 4 samples.

Results

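The genes described here encode 8 secreted or surface proteins of innate antimicrobial defence: Lcn2, Camp, S100a8, S100a9, Ltf, Saa3, Defb1 and Pigr. They were chosen by the gene symbol that the platform annotation gives each probe. All 8 were measured, each by 1 probe, among 15366 named genes. RNA came from whole bladders of male mice on a normal diet. Of the 4 arrays, 2 carried RNA of bladders obstructed for 14 days by partial bladder outlet obstruction, in which surgery narrows the outflow so that voiding needs more pressure, and 2 carried RNA of sham-operated bladders. Strain, age, the time of sampling after the sham operation, and whether each array held the RNA of a separate mouse are not given in the labels. The p-values therefore rest on a spread that could be technical.

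Urinary tract surfaces are protected by proteins that are secreted by epithelium or released by white blood cells that enter the tissue. Some starve microbes of metals. Lcn2 (lipocalin 2) binds the siderophores with which bacteria collect iron, Ltf (lactoferrin, also found in milk, tears and seminal fluid) binds iron itself, and S100a8 and S100a9 join into calprotectin, a major neutrophil protein that binds zinc and manganese. Others damage microbial membranes: Camp is the precursor of the cathelicidin peptide of neutrophils and epithelia, and Defb1 is a beta-defensin that epithelia make without induction. Saa3 is a locally made serum amyloid A protein, known in mice from macrophages and fat tissue, and Pigr is the epithelial receptor that carries dimeric IgA across the cell and releases it into the secretion.

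Values were log2 intensities as deposited, with the same median, 5.80, in every array, and a difference of 1 is a change of 2-fold. Smooth muscle genes were bright in all arrays: Actg2, the enteric smooth muscle actin, measured 15.50 and 15.30 in obstructed bladders and 15.42 and 15.63 in sham bladders. So were urothelial genes, with Upk2, a uroplakin of the urothelial surface, at 14.11 and 13.96 in obstructed and 13.96 and 13.82 in sham bladders. The arrays also differed in genes of another tissue. The mean over 18 measured secretory genes of the male accessory glands was 7.79 and 13.08 in obstructed replicates 1 and 2, against 6.23 and 5.63 in the sham arrays. Svs5, a seminal vesicle secretory protein, measured 9.65 and 15.39 in the obstructed arrays and 6.16 and 6.46 in the sham arrays. For this reason each obstructed array is also given alone below. In bulk RNA, more cells of a type and more RNA per cell cannot be told apart.

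The promoters of the 4 genes whose values spanned more than 1 log2 unit across the arrays are shown first, as the 250 bases before the annotated start from RefSeq (build GRCm38.p6), 5′ to 3′ on the strand of the gene. Promoters of 7 of the 8 genes were found in the table used. Capitals mark the sequence TTGCNNAA on either strand, a motif of C/EBP factors, which act in myeloid cells and in the acute phase response.
Lcn2 (chr2:32387740-32387989, minus strand): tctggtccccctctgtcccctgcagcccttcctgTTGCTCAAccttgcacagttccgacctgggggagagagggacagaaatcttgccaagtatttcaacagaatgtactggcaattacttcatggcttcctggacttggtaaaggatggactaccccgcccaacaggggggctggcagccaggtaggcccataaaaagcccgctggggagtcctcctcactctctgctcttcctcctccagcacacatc
Ltf (chr9:111019042-111019291, plus strand): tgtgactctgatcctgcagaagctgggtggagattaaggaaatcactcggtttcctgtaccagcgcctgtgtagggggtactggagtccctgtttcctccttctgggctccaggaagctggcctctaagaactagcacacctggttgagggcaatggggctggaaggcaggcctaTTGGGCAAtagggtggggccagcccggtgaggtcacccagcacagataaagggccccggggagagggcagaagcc
Pigr (chr1:130826434-130826683, plus strand): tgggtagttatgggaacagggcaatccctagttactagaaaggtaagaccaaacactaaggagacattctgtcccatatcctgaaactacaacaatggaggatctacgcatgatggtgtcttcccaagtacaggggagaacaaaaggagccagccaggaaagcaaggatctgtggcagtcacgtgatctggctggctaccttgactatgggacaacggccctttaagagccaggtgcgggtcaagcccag
Saa3 (chr7:46715677-46715926, minus strand): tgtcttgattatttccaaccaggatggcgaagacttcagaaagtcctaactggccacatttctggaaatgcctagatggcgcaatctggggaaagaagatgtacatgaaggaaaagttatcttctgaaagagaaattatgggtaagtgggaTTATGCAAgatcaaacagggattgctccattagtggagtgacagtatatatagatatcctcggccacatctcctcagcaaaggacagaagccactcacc
The motif was found in Lcn2 at 216 bases before the start, in Ltf at 75 and in Saa3 at 99, and also in S100a9 at 236, but not in the windows of Pigr, Camp and S100a8. Of 27018 promoters of this length, 9.56% held it. The sequence TTCNNNGAA of STAT factors, present in 7.18% of promoters, and the NF-kB consensus, present in 3.75%, were searched on both strands and found in 0 of the 7 windows. The TATA box sequence TATAAA, in 13.0% of promoters on either strand, was found in S100a8 at 30 bases before the start. No searched motif overlapped another in these windows. Binding at these sequences and their part in the values of the genes were not tested.

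Taken over both obstructed arrays, 0 of the 8 genes passed the test, which was limma with Benjamini-Hochberg adjustment over all genes and an adjusted p below 0.05. Of all genes, 0.0521% passed. At an unadjusted p below 0.05, 1 of the 8 was higher (Pigr) and 0 were lower, where 3.05% and 5.09% of all genes were. The obstructed mean was the higher in 6 of 8 genes, against 46.9% of all genes. The groups did not overlap in 3 genes that were higher (Ltf, Pigr and Camp) and 1 that was lower (Defb1), where 17.6% and 21.6% of all genes did so. The median difference, obstructed minus sham, was 0.14 over the 8 genes and -0.016 over all genes. The larger contrast lay between the obstructed arrays: 3 of the 8 genes were over 1 log2 unit above the sham mean in obstructed replicate 2, against 1.78% of all genes, and 0 were in obstructed replicate 1, against 0.683%.

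**Figure D1:**
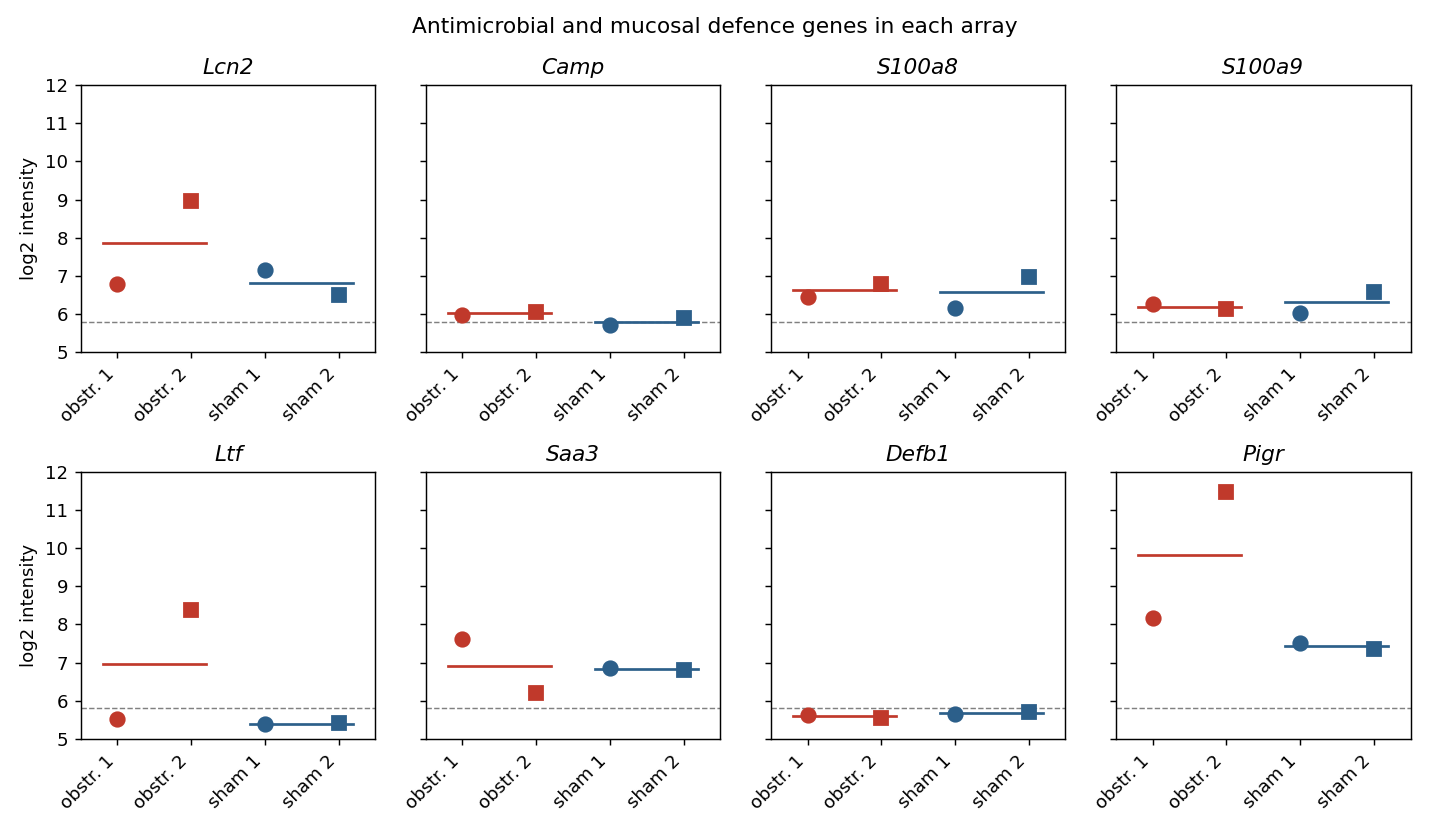
Log2 intensity (vertical axis) of each of the 8 genes in the 4 arrays (horizontal axis), with circles for replicate 1, squares for replicate 2, short lines at the group means and a dashed line at 5.80, the median of all probes. Lcn2, Ltf and Pigr stand high in obstructed replicate 2, and Saa3 is highest in obstructed replicate 1 and lowest in obstructed replicate 2.

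Among the iron-withholding proteins, Lcn2 measured 6.78 and 8.96 in obstructed bladders, against 7.15 and 6.50 in sham bladders (probe 2510112). Only obstructed replicate 2 lay above the sham arrays, and obstructed replicate 1 lay between them, so that the groups overlapped. The obstructed mean was 7.87 ± 1.54 and the sham mean 6.82 ± 0.46 (SD, n = 2 each), a difference of 1.05 (SE 0.67, 95% interval -0.60 to 2.69; limma adjusted p = 0.738). Ltf measured 5.52 and 8.39 in obstructed bladders, against 5.39 and 5.42 in sham bladders (probe 6770364). It stood above 5.80, the median of all probes, in obstructed replicate 2 and below it in the other 3 arrays. The Ltf difference was 1.55 (SE 0.83, interval -0.49 to 3.59; limma adjusted p = 0.702).

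Pigr, the IgA transporter, differed most of the 8. It measured 8.17 and 11.47 in obstructed bladders, against 7.51 and 7.35 in sham bladders (probe 6520441). Both obstructed arrays lay above both sham arrays, by far the more in replicate 2. Means were 9.82 ± 2.33 in obstructed and 7.43 ± 0.11 in sham bladders (SD, n = 2 each). The difference of 2.39 (SE 0.97, interval 0.03 to 4.75) had an unadjusted p of 0.0480 and a limma adjusted p of 0.606. Pigr ranked 27 from the top among the 15366 differences.

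Saa3 measured 7.62 and 6.21 in obstructed bladders, against 6.87 and 6.82 in sham bladders (probe 6510390). The obstructed arrays lay on opposite sides of the sham arrays, which were 0.05 apart. The means were 6.92 ± 1.00 in obstructed and 6.85 ± 0.04 in sham bladders (SD, n = 2 each), and the difference was 0.07 (SE 0.43, interval -0.99 to 1.13; limma adjusted p = 0.983).

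The calprotectin subunits, which lie next to each other on the chromosome, showed no separation of the groups. S100a8 measured 6.46 and 6.79 in obstructed bladders, against 6.17 and 6.98 in sham bladders (probe 70112). S100a9 measured 6.26 and 6.13 in obstructed bladders, against 6.03 and 6.59 in sham bladders (probe 7050528). In both genes the sham arrays enclosed the obstructed arrays. The sham arrays were 0.81 apart for S100a8, 0.56 for S100a9 and 0.65 for Lcn2, so that 3 of the 8 genes had sham arrays over 0.5 apart, as had 5.07% of all genes. The differences were 0.05 for S100a8 (interval -0.65 to 0.75) and -0.11 for S100a9 (interval -0.63 to 0.40), with limma adjusted p-values of 0.981 and 0.926. These intervals leave room for changes of up to 0.75 and 0.63 log2 units, so that an equal level in the groups is not shown.

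Of the membrane-active peptides, Camp measured 5.97 and 6.06 in obstructed bladders, against 5.72 and 5.89 in sham bladders (probe 6290735). Both obstructed arrays lay above both sham arrays, which were 0.17 apart, with a difference of 0.21 (SE 0.13, interval -0.12 to 0.54; limma adjusted p = 0.732). Camp lay close to the median of all probes, 5.80, and under it in 1 array, so that its values may be near background. Defb1 measured 5.63 and 5.56 in obstructed bladders, against 5.67 and 5.71 in sham bladders (probe 5080167). All 4 values of Defb1 were under the median of all probes, as were those of 24.0% of all genes, so that its values may be background and a change could go unseen. Its difference was -0.09 (SE 0.12, interval -0.39 to 0.20; limma adjusted p = 0.884).

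Set alone against the sham group, obstructed replicate 2 had 3 of the 8 genes called higher, against 3.38% of all genes, and 1 called lower, against 5.08%. This fit takes the spread of the sham arrays as that of the obstructed array too, and its p-value says nothing about other obstructed bladders. Pigr was 4.04 above the sham mean, a ratio of 16.4 (interval 3.56 to 4.52 on the log2 scale; limma adjusted p = 2.77e-08). Ltf was 2.98 above, a ratio of 7.91 (interval 2.61 to 3.35; limma adjusted p = 4.17e-08), and Lcn2 2.14 above, a ratio of 4.40 (interval 1.60 to 2.67; limma adjusted p = 5.67e-05). Saa3 was the gene called lower, at -0.64 (interval -1.02 to -0.26; limma adjusted p = 0.0362).

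With obstructed replicate 1 alone, 1 of the 8 genes was called higher, against 1.00% of all genes, and 0 were called lower, against 1.10%. The gene called was Saa3, at 0.78 above the sham mean (interval 0.38 to 1.18; limma adjusted p = 0.0478). Pigr stood at 0.75, a ratio of 1.68 (interval 0.31 to 1.18; limma adjusted p = 0.0927), Ltf at 0.12 (interval -0.26 to 0.50) and Lcn2 at -0.04 (interval -0.55 to 0.46). Saa3 was thus called in opposite directions in the 2 obstructed arrays. Camp, S100a8, S100a9 and Defb1 lay between -0.12 and 0.17 in replicate 1 and between -0.18 and 0.26 in replicate 2, and none of them was called in either. The difference between the obstructed arrays themselves has no test, since each is 1 array.

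**Figure D2:**
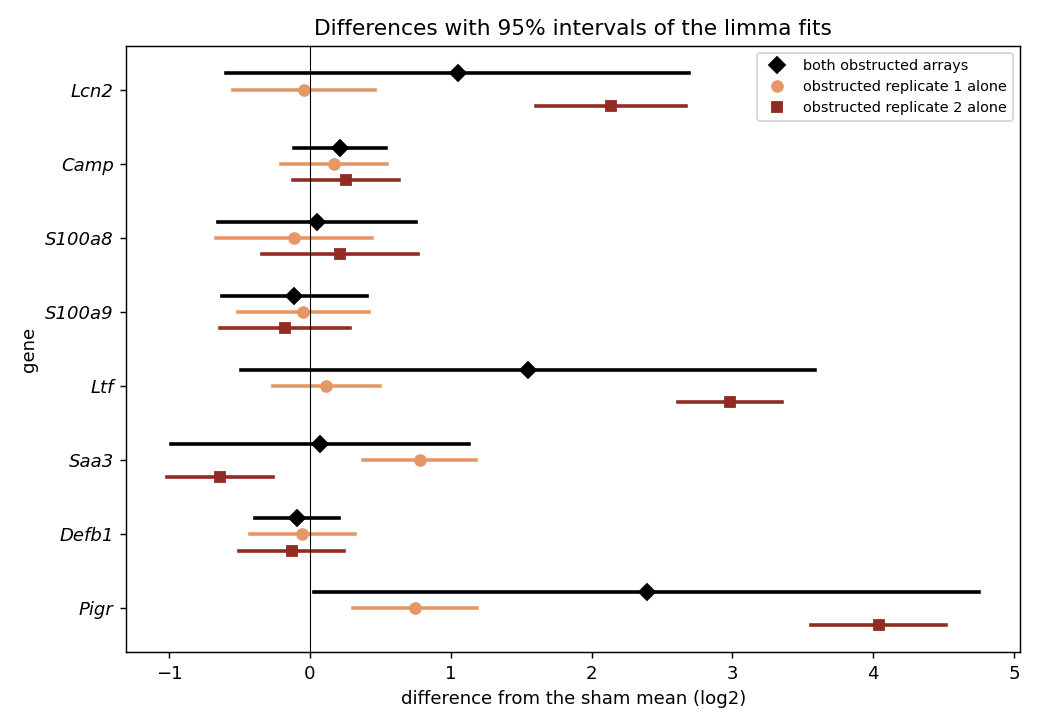
Difference from the sham mean on the log2 scale (horizontal axis) of each gene (vertical axis) with 95% intervals of the limma fits, from both obstructed arrays (black diamonds), obstructed replicate 1 alone (orange circles) and obstructed replicate 2 alone (dark red squares). The intervals of Lcn2, Ltf and Pigr for replicate 2 alone lie clear of those for replicate 1 alone, and the intervals of Saa3 lie on opposite sides of 0.

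Genes with a course like that of the 4 widely spanning genes were found by the mean absolute difference of the sham-centred values over the 4 arrays, among genes with a mean above the median of all probes. Nearest to Pigr were Cldn3, a tight junction claudin of epithelia, Pdzk1, a scaffold of apical membrane transporters, and Cd52, a surface glycoprotein of lymphocytes that is also made by epithelium of the male tract. Cldn3 measured 6.25 and 9.75 in obstructed bladders, against 5.63 and 5.66 in sham bladders, a mean absolute difference from Pigr of 0.10. Nearest to Ltf were Bmpr1b, a bone morphogenetic protein receptor, Atp6v1c2, a subunit of the vacuolar proton pump, and Egf, the epidermal growth factor, which was at 5.82 and 8.49 in obstructed and 5.79 and 5.63 in sham bladders. Nearest to Lcn2 were Abcg2, a drug efflux transporter, and the transcription factors Elf5 and Creb3l4. Elf5, a factor of glandular epithelium, measured 7.33 and 9.57 in obstructed bladders, against 7.58 and 7.10 in sham bladders. Nearest to Saa3 were Cyth4, Rftn1 and Clec4n, of which Clec4n (Dectin-2) is a receptor of macrophages and dendritic cells for fungal sugars, at 7.62 and 6.33 in obstructed and 7.07 and 7.01 in sham bladders. With 4 arrays many genes share a course, so these lists are descriptions.

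**Figure D3:**
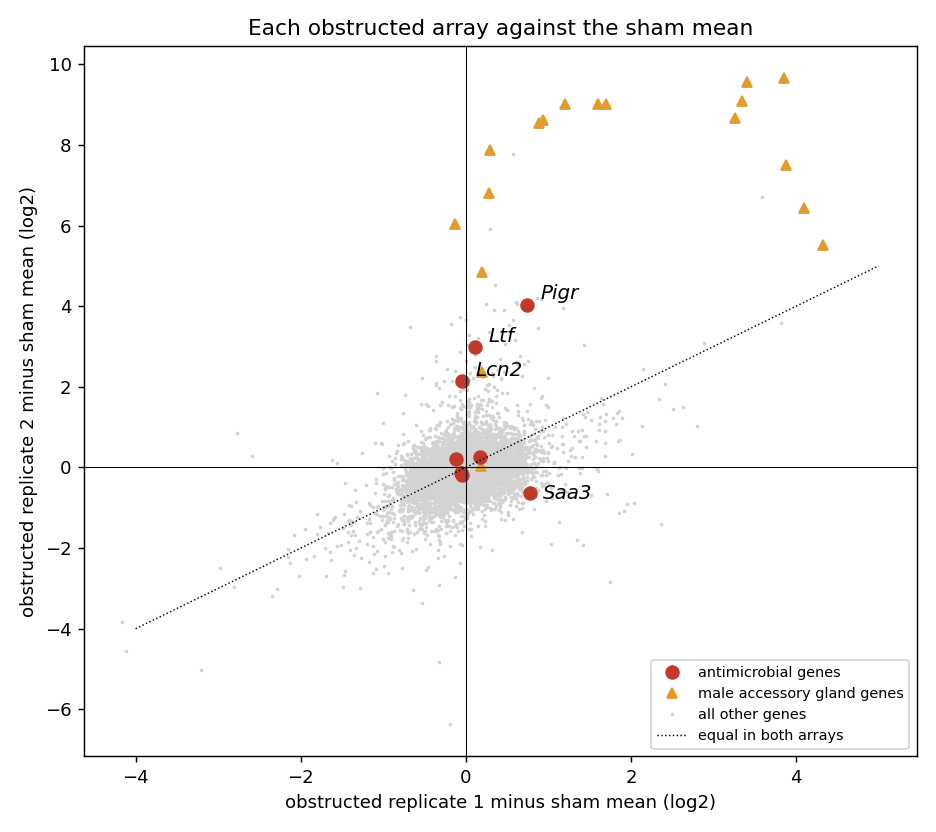
Difference from the sham mean on the log2 scale in obstructed replicate 1 (horizontal axis) and obstructed replicate 2 (vertical axis) for the 8 antimicrobial genes (red circles), the accessory gland genes (orange triangles) and all other genes (grey points), with a dotted line where both arrays are equal. Pigr, Ltf and Lcn2 lie above the line on the side of the accessory gland genes, and Saa3 lies below it.

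Most accessory gland genes were, like Lcn2, Ltf and Pigr, higher in obstructed replicate 2 than in obstructed replicate 1. Of the 18 measured, 10 were over 1 log2 unit above the sham mean in replicate 1 of the obstructed group and 17 in replicate 2, with medians of 1.40 and 8.22. In obstructed replicate 1, where the gland median was the smaller, Lcn2 and Ltf stood at -0.04 and 0.12 from the sham mean and Pigr at 0.75. In the test over both arrays 0 of 18 were called. At an unadjusted limma p below 0.05, 9 of the 18 were higher, against 3.05% of all genes, and 0 were lower. In 16 of the 18 the groups did not overlap, with obstructed higher, against 17.6% of all genes. The 4 brightest were Spink1, a protease inhibitor, Sbp, a spermine-binding protein of the prostate, and the seminal vesicle proteins Svs5 and Svs4. Sbp measured 12.99 and 15.32 in obstructed bladders, against 11.91 and 5.89 in sham bladders, and Spink1 13.72 and 14.92, against 11.93 and 6.86. These 2 genes were thus also high in sham replicate 1, but Svs5, given above, was not. Sham replicate 1 therefore did not have the gland genes of obstructed replicate 2 as a set. Between the sham arrays Pigr and Ltf were within 0.16 and 0.02, and Lcn2 was 0.65 higher in sham replicate 1. The part of accessory gland RNA in the values of Lcn2, Ltf and Pigr was not tested.

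Neutrophil markers had nearly the same mean in the 4 arrays. Of 16 measured markers other than the 8 genes, 8 were dimmer than the median probe in all 4 arrays, among them Cxcr2, the chemokine receptor of neutrophils, and the granule genes Mmp8, Ngp and Cd177. The mean over the 16 was 5.97 and 5.91 in obstructed bladders, against 5.98 and 5.94 in sham bladders. With 8 of the 16 this dim, a change could go unseen in that mean. None was called over both arrays, and 1 had an unadjusted p below 0.05, the gelatinase Mmp9, which macrophages and other cells also make, at 7.74 and 7.41 in obstructed and 9.21 and 8.97 in sham bladders. Of the other bright members, the decoy receptor Il1r2 measured 7.86 and 7.86 in obstructed and 7.67 and 6.67 in sham bladders, the myeloperoxidase gene Mpo 6.90 and 6.30, against 6.92 and 6.90, and Csf3r, the receptor of the growth factor for neutrophils, 6.28 and 5.86, against 5.94 and 5.91.

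Of 12 macrophage markers measured, 11 were, like Saa3, higher in obstructed replicate 1 than in obstructed replicate 2. This was not particular to them, as it held for 10 of 10 smooth muscle, 9 of 9 fibroblast and 23 of 27 receptor and sensor genes. It held for 4 of 12 urothelial, 0 of 10 general epithelial and 1 of 18 accessory gland genes. The share over all genes was not counted. The median of the macrophage markers was 0.41 and -0.66 from the sham mean in obstructed replicates 1 and 2, and Saa3 stood at 0.78 and -0.64. C1qb, a chain of complement C1q made by macrophages, measured 10.24 and 8.50 in obstructed bladders, against 8.86 and 9.29 in sham bladders. Adgre1, a surface protein of mouse macrophages, measured 10.06 and 9.04, against 9.83 and 9.75, C1qc 9.32 and 7.79, against 8.60 and 9.18, and Lyz2 9.95 and 8.11, against 9.20 and 9.56. As in Saa3, 8 of the 12 lay above the sham mean in obstructed replicate 1 and below it in obstructed replicate 2. So did 5 of 10 smooth muscle, 4 of 9 fibroblast, 11 of 27 receptor and sensor, and 6 of 15 acute phase genes. The same was seen in 4 of 9 lymphocyte and plasma cell genes and 11 of 39 other defence genes. It was also seen in 7 of 22 cytokines and transcription factors and 3 of 16 neutrophil markers. None of the urothelial, general epithelial or accessory gland genes took this course, and the share over all genes was not counted. The other 4 macrophage markers are named because they took another course. They were Mrc1 at -0.35 and -1.57, Cd163 at -0.71 and -1.86, Cx3cr1 at 1.10 and 0.49, and Mertk at -0.16 and 0.45. Mertk was the macrophage marker that was lower in replicate 1. Over both arrays 0 of the 12 were called. Their part in the course of Saa3 was not tested.

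Epithelial genes were measured beside Pigr and Defb1, which epithelia make. The mean over 12 urothelial markers was 10.64 and 10.85 in obstructed bladders, against 10.60 and 10.62 in sham bladders, and their median difference was 0.04. The brightest were Psca, Upk2, Krt7 and Upk3a, with differences between -0.08 and 0.15. Sprr2f had the largest difference of the 12, at 1.62, and is described under other observations. Foxa1 stood at -0.52 and 0.81 from the sham mean in obstructed replicates 1 and 2. The median of 10 general epithelial genes was 0.16 and 0.57 above the sham mean in obstructed replicates 1 and 2, and 9 of the 10 had a higher obstructed mean. Cldn3, given above as nearest to Pigr, is 1 of the 10 and stood highest, at 0.60 and 4.10. In obstructed replicate 2 alone 3 of them were called, all higher, namely Cldn3, Cldn7 and Krt8 (limma adjusted p = 2.31e-09, 0.0250 and 0.0360). The keratins Krt8 and Krt18 differed by 0.46 and 0.29, and Spint1 and Cldn4, a protease inhibitor and a claudin, by 0.35 and 0.18. Over both arrays 0 genes of either list were called. Of 9 lymphocyte and plasma cell genes 0 were called, and Jchain, which joins the IgA that Pigr carries, was dimmer than the median probe in all arrays, at 4.87 and 4.96 in obstructed and 5.15 and 4.76 in sham bladders. The brightest of that list were Sdc1, which epithelium also makes, Cd3e, Cd3g and Ms4a1, with differences of 0.33, 0.18, -0.01 and -0.05.

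**Figure D4:**
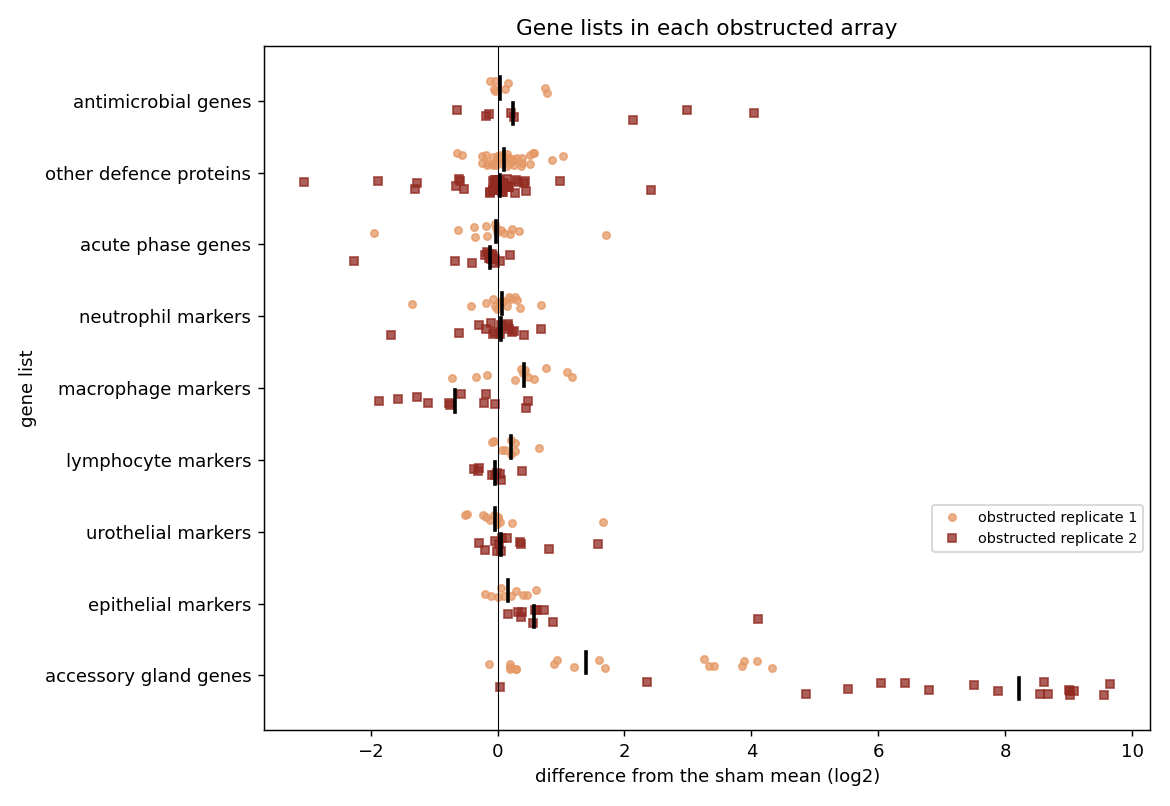
Difference from the sham mean on the log2 scale (horizontal axis) of every measured gene of 9 gene lists (vertical axis) in obstructed replicate 1 (orange circles) and obstructed replicate 2 (dark red squares), with black bars at the list medians. Accessory gland genes have medians of 1.40 and 8.22, macrophage markers 0.41 and -0.66, and neutrophil markers 0.07 and 0.05.

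Other antimicrobial and mucosal defence genes showed no common direction. Of 39 measured, 0 were called over both arrays, 2 higher and 1 lower had an unadjusted p below 0.05, 21 had a higher and 18 a lower obstructed mean, and the median difference was 0.05. The 4 brightest, S100a6, Wfdc2, S100a11 and Rnase4, differed by between -0.10 and 0.18. Wfdc2, a protease inhibitor of many epithelia, measured 14.04 and 13.82 in obstructed bladders, against 13.74 and 13.84 in sham bladders, and Rnase4, an antimicrobial ribonuclease of the urinary tract, 11.84 and 11.62, against 11.54 and 11.79.

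In obstructed replicate 2 alone, 8 of the 39 were called, 2 higher and 6 lower, and they are named here because they were called. Pglyrp1, a peptidoglycan recognition protein of neutrophil granules and epithelia, measured 6.95 and 8.99 in obstructed bladders, against 6.56 and 6.56 in sham bladders. Like Lcn2 it was high in obstructed replicate 2, but unlike Lcn2 it lay above both sham arrays in both obstructed arrays. Defb2, another beta-defensin, measured 5.12 and 6.09, against 4.95 and 5.27. The lysozymes Lyz1 and Lyz2 went the other way, with Lyz1 at 9.15 and 6.24 in obstructed and 8.38 and 7.87 in sham bladders. Slpi, a secreted inhibitor of neutrophil elastase with antibacterial activity, measured 9.07 and 6.65 in obstructed bladders, against 9.96 and 9.44 in sham bladders. S100a4, Mpo and Rnase2a, at -1.30, -0.61 and -0.66 from the sham mean, completed the 6 that were called lower. Lyz1 was the 1 gene of the list called in obstructed replicate 1 alone, at 1.03 above the sham mean.

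Chromosomal neighbours of the 8 genes, taken as the next protein-coding genes of the RefSeq annotation of GRCm38.p6, were compared next. The neighbours of Lcn2, 1110008P14Rik and Ptges2, differed by 0.42 and 0.02, and those of Camp, Cdc25a and Nme6, by 0.41 and -0.15. Ccrl2 and Rtp3 beside Ltf differed by -0.33 and -0.17, and Fcamr, a receptor of IgA and IgM beside Pigr, by -0.04. Beside the calprotectin genes, S100a7a differed by -0.16 and Pglyrp4 by 0.09. In obstructed replicate 2 the highest of these were Cdc25a and 1110008P14Rik, at 0.67 and 0.55 above the sham mean. Saa4 beside Saa3 measured 5.69 and 5.59 in obstructed bladders, against 5.62 and 5.77 in sham bladders, and Saa1 and Saa2, the acute phase proteins made by the liver, were likewise dimmer than the median probe in all arrays. The measured neighbour of Defb1 took another course. Defb50, a beta-defensin of the accessory glands, measured 9.30 and 12.93 in obstructed bladders, against 5.68 and 5.15 in sham bladders, a difference of 5.70 (limma adjusted p = 0.235). Defb1 itself moved by -0.05 and -0.13 in the same arrays.

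Receptors and sensors were read from the same fits. Of 27 receptors and sensors 0 were called over both arrays, and the median difference was 0.01. The brightest were Lrp1, an endocytic receptor that also takes up lactoferrin, Il10rb, Irak1, a kinase of Toll-like receptor signalling, and Tlr2, with differences of -0.15, 0.09, 0.75 and 0.07. Irak1 measured 9.49 and 9.32 in obstructed bladders, against 8.77 and 8.53 in sham bladders (limma adjusted p = 0.461). With 1 obstructed array alone, Cd36, a scavenger receptor that also takes up fatty acids, was called lower in each, at -1.29 in replicate 1 and -1.83 in replicate 2 (limma adjusted p = 0.0140 and 2.35e-04), and Il6st, the signalling chain of interleukin 6 receptors, was called lower in replicate 2 at -1.14 (limma adjusted p = 0.00253). Over both arrays Cd36 had the largest difference of the 27, at -1.56 (unadjusted p = 0.00172, limma adjusted p = 0.231). Of 22 inducing cytokines and transcription factors 0 were called, with a median difference of 0.10. Stat3, which acts downstream of interleukins 6 and 22, measured 11.34 and 11.06 in obstructed bladders, against 10.42 and 10.76 in sham bladders, a difference of 0.61 (limma adjusted p = 0.567). The NF-kB subunit Rela and the C/EBP factors Cebpb and Cebpa differed by -0.18, -0.11 and 0.002. In single arrays, Vdr, the vitamin D receptor, was called higher in obstructed replicate 1 at 0.99 (limma adjusted p = 0.0203), and Spdef, a transcription factor of secretory epithelium, in obstructed replicate 2 at 1.48 (limma adjusted p = 8.69e-05). Spdef measured 5.63 and 6.95 in obstructed bladders, against 5.34 and 5.59 in sham bladders. These 4 genes are named because they were called. The cytokines Il1a, Il1b, Il17a, Il17f, Il22 and Tnf were dimmer than the median probe in all arrays.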

How the data were processed

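Bladder RNA was measured on biotin-labelled, single-colour Illumina arrays, per the labels. The authors deposited 1 value per probe and array for 46657 probes. The deposited values run from 4.14 to 15.63 and were taken as log2 intensities, a scale that neither a header nor a label gives. The sorted values of the 4 columns differed by at most 0.0252, as quantile normalization leaves them. How background was treated is not given in the sources used here, no detection p-values were used, and the number of arrays limits the precision.

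Of the probes, 22380 had 1 gene symbol in the platform annotation, 0 several and 24277 none. The probe with the highest mean was used per gene. Obstructed was compared with sham over 15366 genes in limma 3.58.1 (R 4.3.3, lmFit, eBayes with trend, two-sided, Benjamini-Hochberg adjustment over all genes, adjusted p below 0.05), without a filter, on 6.04 degrees of freedom. Fits with 1 obstructed array used the same model. The script was tested on simulated data. Figures were drawn with matplotlib 3.10.9 in Python 3.11.15.

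The 8 genes and all lists were chosen with earlier results of these data known. Named were the 8 genes, the 4 brightest genes of each list, called genes, the 3 nearest genes by course and, chosen after their values were seen, further genes of interest. Alternatives were 2 other normalizations, a filter on dim genes, a linear floor of 50, 2 probe rules, 3 variance models, array weights, blocking by replicate number, leaving out each array, and an adjusted p below 0.1.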

Additional observations from a re-analysis of the deposited data

How the results depend on the processing

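Under the alternatives that kept all 4 arrays, 0 of the 8 genes were called, and the lowest limma adjusted p among them was 0.506. Defb1 was not tested where genes below the median were left out. Each gene kept its direction, but most of these alternatives could not change it. Each gene had 1 probe, and the arrays already shared a median and nearly the same sorted values. The filter, variance models, weights and block leave the difference as it is. The floor of 50 moved the difference of Ltf to 1.37 and that of Defb1 to -0.04. Leaving out an array could change calls and directions. The 8 genes gave between 0 and 4 calls, from 4 without obstructed replicate 1 (Lcn2, Ltf, Pigr and Saa3) and 1 without obstructed replicate 2 (Saa3) to 0 without sham replicate 1 and 0 without sham replicate 2. The difference of Lcn2 ran from -0.041 without obstructed replicate 2 to 2.14 without obstructed replicate 1, and that of Saa3 from 0.78 to -0.64 in the same order. S100a8 was at -0.12 without obstructed replicate 2 and ran from -0.35 without sham replicate 1 to 0.46 without sham replicate 2, and S100a9 from -0.39 to 0.17 in that order. The median over the 8 genes ran from 0.04 to 0.38 and the number with a higher mean from 4 to 7. Over all genes, 8 were called in the comparison as reported. The number was 0 with the floor of 50 (with an unadjusted p below 0.05 in 490 higher and 759 lower genes) and 0 with the unmoderated fit (463 and 598). It was 3 with dim genes left out, 18 with every probe on its own, 17 with a robust trend, 23 at an adjusted p below 0.1, and between 0 and 1299 with an array left out. With the replicate number as a block it was 1, and 0 of the 8 genes were called. The labels do not say that equal numbers mark a shared source, and the deviations of equally numbered arrays from their group means correlated at -0.017, so the numbers were not taken as pairs. The cause of these changes was not tested. Dim probes, such as that of Defb1, limit what can be seen, and the 4 arrays limit the precision.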

Other observations

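Sprr2f, a small proline-rich protein of epithelial barriers, was 1 of the 12 urothelial markers above. It measured 8.29 and 8.21 in obstructed bladders, against 6.71 and 6.55 in sham bladders, a difference of 1.62 (limma adjusted p = 0.0780). It was called with obstructed replicate 1 alone and with obstructed replicate 2 alone (limma adjusted p = 2.52e-04 and 8.24e-05), and was named after its values were seen.

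Of 15 acute phase genes measured, 0 were called over both arrays, and 1 had an unadjusted p below 0.05. This was Hp, the haptoglobin that binds free haemoglobin, at 6.99 and 6.66 in obstructed bladders, against 9.50 and 8.36 in sham bladders, a difference of -2.10 (limma adjusted p = 0.215). Serpina3n, a protease inhibitor, measured 12.87 and 10.50 in obstructed bladders, against 11.16 and 11.16 in sham bladders, so that it lay above the sham arrays in replicate 1 and below them in replicate 2, as Saa3 did. The other bright genes of this list, Cp and Orm1, differed by -0.38 and -0.29.

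Of 9 fibroblast genes and 10 smooth muscle genes 0 were called over both arrays. At an unadjusted limma p below 0.05, 1 fibroblast gene and 3 smooth muscle genes were lower, where 5.09% of all genes were, and 0 were higher. Medians over the 9 fibroblast and 10 smooth muscle genes were 0.07 and 0.05 in obstructed replicate 1. In obstructed replicate 2, the array in which Lcn2, Ltf and Pigr were high, the medians were -0.67 and -0.83. Acta2, the smooth muscle actin, measured 13.71 and 12.37 in obstructed bladders, against 14.06 and 14.04 in sham bladders, and Myh11, the smooth muscle myosin heavy chain, 13.74 and 12.76, against 13.91 and 14.69. Tagln differed by 0.07. Among the fibroblast genes Dcn, Col3a1, Col1a2 and Col1a1 differed by -0.29, -0.18, -0.41 and 0.07.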
